A study of Mus musculus with 32 samples.

Results

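The genes described here are the mouse odorant receptors Olfr467 to Olfr541 and Olfr693 to Olfr716 on chromosome 7. Their numbers lie on either side of those of the large class I cluster of that chromosome, which is an order of numbers and not of position. A gene entered when a probe set was annotated to its symbol alone, and 71 receptors did so, each with 1 probe set. They are 71 of 1026 odorant receptors and of 19938 genes measured. Cells came from the olfactory mucosa of adult S100a5-tauGFP mice, in which GFP follows S100a5, a gene that olfactory neurons switch on with activity. Mice spent 26 h singly in clean air and then 14 h with a 10 s pulse every 5 min of vehicle, eugenol or muscone, and dissociated cells were sorted into GFP-positive and GFP-negative fractions. The 32 arrays form 8 groups of 4, namely GFP-positive and GFP-negative cells after vehicle and after eugenol in the 4 eugenol experiments, and the same after vehicle and after muscone in the 4 muscone experiments. All groups carry the reporter, so no group lacks it. Whether each array stands for its own mouse is not stated in the labels. The p-values here measure the spread left between arrays once group and experiment means are removed, which may be technical. Vehicle and odorant arrays of a fraction in an experiment were treated as independent beyond that. Deviations that they share can make SEs and p-values between fractions too small.

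An olfactory sensory neuron expresses 1 allele of 1 odorant receptor gene, and the receptor on its cilia opens the cAMP pathway through the G protein Golf, adenylyl cyclase 3 and a cyclic nucleotide-gated channel. In sorted cells the signal of a receptor therefore follows both the number of neurons that chose it and the RNA in each, and in these bulk samples fewer cells of a type and less RNA per cell cannot be told apart. Because GFP marks neurons that were active, a receptor higher in the GFP-positive fraction is one whose RNA was more abundant among reporter-bright cells. Class I receptors are related to those of fish and class II receptors are the larger group of land vertebrates.

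The 71 were grouped by gene number into 4 stretches. These are 19 genes from Olfr693 to Olfr716, 38 from Olfr467 to Olfr519, 12 from Olfr522 to Olfr541, and the pair Olfr520 and Olfr521. In the RefSeq order of the 71 each stretch is unbroken and that pair comes first, and distances between genes were not used. RefSeq lists all 71 as protein-coding. Their synonyms place them in 14 families of the MOR nomenclature, the largest being MOR204 with 29 members and MOR283 with 11. For 70 of the 71 the family name is a class II name. Olfr504 carries the synonym family MOR40, which is a class I name, so the description as class II does not hold for it by name. Another 26 RefSeq genes with numbers in these ranges had no probe set of their own. Of these, 19 are pseudogenes and 7 appear only on 11 probe sets shared with other genes. Olfr713 and Olfr714 are also known as P3 and P4, and Olfr480 as S25.

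The MOR204 receptors are close relatives, and the first coding bases of 8 of them are shown because these 8 fell at very different points of the sort, from Olfr490 to Olfr495. Capitals mark bases that differ from Olfr494.
Olfr494: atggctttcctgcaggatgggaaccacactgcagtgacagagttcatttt
Olfr484: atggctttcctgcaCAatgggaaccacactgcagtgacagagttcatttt
Olfr490: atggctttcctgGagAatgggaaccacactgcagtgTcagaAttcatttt
Olfr492: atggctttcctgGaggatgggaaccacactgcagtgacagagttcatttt
Olfr493: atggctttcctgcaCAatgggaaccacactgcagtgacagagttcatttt
Olfr495: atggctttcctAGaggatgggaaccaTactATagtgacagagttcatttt
Olfr497: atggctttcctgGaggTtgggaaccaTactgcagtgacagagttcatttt
Olfr498: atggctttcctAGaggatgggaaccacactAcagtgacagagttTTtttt
The pair Olfr472 and Olfr473, of the same family, is shown with capitals where Olfr473 differs from Olfr472.
Olfr472: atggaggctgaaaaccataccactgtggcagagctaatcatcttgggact
Olfr473: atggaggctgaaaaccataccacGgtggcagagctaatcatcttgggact

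These sequences are from RefSeq, build GRCm38.p6, each written 5′ to 3′ on the gene's strand from the ATG at the annotated start. Olfr494 begins at chr7:108367492-108367541 on the plus strand and its neighbour Olfr495 at chr7:108395122-108395171 on the plus strand. Olfr497 begins at chr7:108422573-108422622 and Olfr498 at chr7:108465326-108465375, both on the plus strand. Olfr484 (chr7:108125212-108125261), Olfr490 (chr7:108287075-108287124), Olfr492 (chr7:108323625-108323674) and Olfr493 (chr7:108346930-108346979) lie on the minus strand. Olfr472 (chr7:107902719-107902768) and Olfr473 (chr7:107933522-107933571) lie on the plus strand. Over these 50 bases Olfr492 was 98% identical to Olfr494, Olfr484 and Olfr493 96%, Olfr497 94%, Olfr490 92%, and Olfr495 and Olfr498 90%. Receptors this alike may share hybridisation, so the signal of such a probe set may include RNA of a near copy, and the probes' own sequences were not used here.

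Array medians lay between 6.72 and 8.81 (log2), lowest in muscone experiment 3 and highest in eugenol experiment 2. The arrays of an experiment moved together, so every comparison was made within experiments. Mean signals of members over the 32 arrays lay between 4.74 and 10.92 (log2), and signals of different probe sets are not compared. The vomeronasal receptors, a family that olfactory neurons of the main epithelium do not use, had a median signal of 4.52 over 163 genes. Of the 71 members, 67 lay above 5.68, the 90th percentile of the vomeronasal receptors, while Olfr474, Olfr482, Olfr504 and Olfr512 did not and stand close to background. Others were near background mainly in the fraction where they were low. Olfr702 also lay under 5.68 in 3 of the 8 vehicle arrays of its higher fraction, and Olfr480 in 1. Of the 59 members called under vehicle, 22 had at least 1 vehicle array of their lower fraction at or under 5.68. In 5 (Olfr474, Olfr482, Olfr490, Olfr512 and Olfr702) all 4 of the eugenol or of the muscone experiments lay there. Both counts include the dim members Olfr474, Olfr482 and Olfr512. Where a fold is given for a member with such arrays, values under 5.68 were raised to that limit. It is a lower bound with respect to background only, and takes no account of the spread between experiments or of the scale. The sort also changed the makeup of the samples. Under vehicle all 15 mature neuron markers passed as higher in the GFP-positive fraction (median difference 0.57, log2; centred on odorant receptors, 2 higher, 6 lower and -0.08), 10 of 11 immature neuron markers and 8 of 8 measured basal progenitor markers as lower, and 13 of 13 immune markers as lower. None of 6 sustentacular markers passed (median 0.03), and of 5 endothelial markers 1 was higher and 2 lower. Summed up as a mean level, the immune markers lay at 7.47 to 9.56 in the GFP-positive and at 10.62 to 12.21 in the GFP-negative arrays, and the mature markers at 11.84 to 13.63 and at 10.70 to 13.33. Beyond the centring given with the counts of receptors, their part in the receptors' differences was not tested.

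Under vehicle most of these receptors were higher in the GFP-positive cells, a smaller set was lower, and the differences ran from -3.05 to 3.24 (log2). With limma and Benjamini-Hochberg adjustment over all genes, 51 of the 71 passed as higher, 8 as lower and 12 did not pass. Of all genes tested, 45.1% passed as higher and 21.9% as lower. The members' shares were 71.8% and 11.3%, beside 65% and 20% of the 955 other odorant receptors. The median difference of the members was 1.02, against 0.73 for the other odorant receptors, 0.95 for the 108 receptors from Olfr543 to Olfr692 and 0.14 for all genes. Higher by more than 1 (log2) were 37 members, against 2.28% of all genes. The medians of 0.73 and 0.95 place many other odorant receptors near this limit too, so the contrast with all genes is not particular to the members. In 48 members all 8 experiments had 1 sign, upward in 44 and downward in 4, and 42.4% of all genes had 1 sign in all 8. The split between higher and lower depended on the scale. When each array was centred on its odorant receptors, 38 members were higher and 24 lower, and when it was centred on mature neuron genes, 36 and 24, with the median of all genes moved from 0.14 to -0.51 and -0.53. Without the experiment as a block, 25 members passed as higher and 3 as lower.

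**Figure D1:**
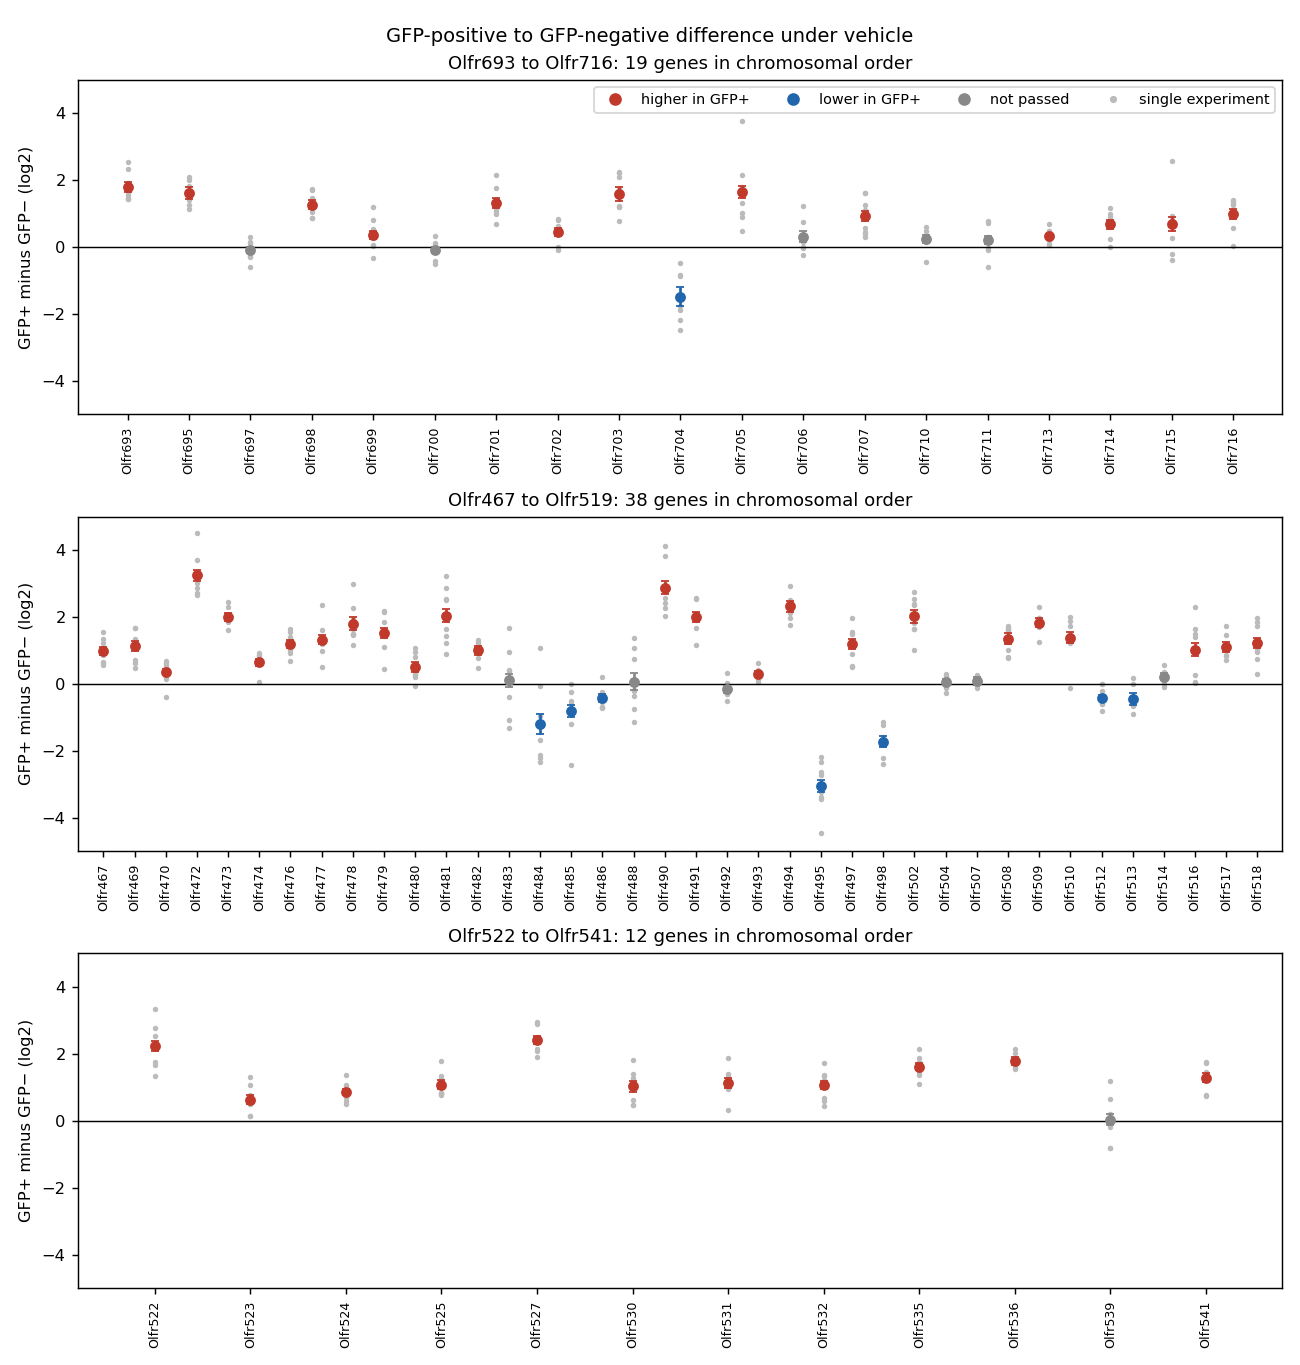
Difference between GFP-positive and GFP-negative cells under vehicle (log2, vertical axis) for 69 receptors in chromosomal order within 3 stretches (Olfr520 and Olfr521 are left out). Grey points are the 8 experiments and coloured points the fitted mean ± SE. Olfr495 at -3.05 stands between Olfr494 at 2.31 and Olfr497 at 1.18.

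Olfr472, a MOR204 receptor, had the highest difference of the set. In the eugenol experiments its vehicle signals were 10.14, 10.95, 9.82 and 10.81 in GFP-positive cells and 6.83, 8.31, 6.81 and 7.13 in GFP-negative cells (log2, experiments 1 to 4). Those of the muscone experiments were 9.57, 9.60, 7.61 and 9.40 against 6.72, 6.36, 3.12 and 6.70. The fractions did not overlap in either set, and experiment 3 of the muscone set was low in both. The difference was 3.24 (SE 0.17, n = 8 experiments), with a limma adjusted p of 7.06e-13. The GFP-negative array of muscone experiment 3, at 3.12, lay in the range of background. With that value raised to 5.68 the estimate was 7.59-fold higher in GFP-positive cells. Without that raising, the difference lay between 2.57 and 3.35 (log2) under every setting tried.

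Olfr490, also of MOR204, gave 7.79, 9.82, 8.26 and 8.57 in GFP-positive cells and 5.23, 7.78, 5.85 and 5.74 in GFP-negative cells of the eugenol experiments. The muscone experiments gave 8.08, 7.91, 6.22 and 7.42 against 3.95, 4.08, 3.26 and 5.13. The fractions only just failed to overlap in the eugenol set and lay well apart in the muscone set, and the measured difference was 2.88 (SE 0.18), with a limma adjusted p of 1.55e-11. In GFP-negative cells 5 of the 8 vehicle arrays lay at or under 5.68, among them all 4 of the muscone experiments, so the size is a bound. With those values raised to 5.68 the estimate for Olfr490 was 4.10-fold higher in GFP-positive cells, a log2 difference of 2.03. Its place among the largest differences is not settled.

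Olfr527 of family MOR251 lies in the Olfr522 to Olfr541 stretch. Its vehicle signals were 11.70, 12.16, 10.92 and 11.69 against 9.23, 10.25, 8.78 and 9.26 in the eugenol experiments, GFP-positive before GFP-negative. Those of the muscone experiments were 12.46, 10.61, 10.60 and 11.59 against 9.97, 8.53, 7.73 and 8.65. The fractions did not overlap in either set, and the difference was 2.42 (SE 0.13, limma adjusted p 7.09e-13). Olfr522, a MOR103 receptor of the same stretch but not adjacent to it, was higher by 2.23 (SE 0.15) in 8 of 8 experiments. The other receptors among the 10 largest were Olfr481, Olfr502, Olfr473, Olfr491 and Olfr509, with differences from 1.82 to 2.04, and Olfr494.

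Olfr494 and Olfr495 are adjacent members of MOR204 and lay at opposite ends of the sort. Olfr494 had vehicle signals of 10.17, 10.87, 9.52 and 9.68 in GFP-positive and 8.20, 8.45, 7.39 and 7.29 in GFP-negative cells of the eugenol experiments. In the muscone experiments it had 10.36, 9.73, 8.33 and 10.24 against 7.84, 6.80, 6.56 and 7.85. It was higher in GFP-positive cells in 8 of 8 experiments with no overlap of the fractions in either set, by 2.31 (SE 0.16, limma adjusted p 6.17e-11). Olfr495 ran the other way, with 7.99, 6.68, 6.66 and 6.97 in GFP-positive and 10.17, 11.15, 9.28 and 10.19 in GFP-negative cells of the eugenol experiments. The signals of the muscone experiments were 6.99, 5.82, 5.63 and 6.15 against 10.44, 8.16, 8.36 and 9.54. Its fractions did not overlap in either set. Olfr495 differed by -3.05 (SE 0.19, 95% interval -3.44 to -2.66, limma adjusted p 1.21e-11). With 1 array raised to 5.68 the estimate was 8.24-fold higher in GFP-negative cells. Without that raising, its difference lay between -3.72 and -2.83 under every setting tried.

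Olfr498, the next measured gene after Olfr497, was also lower in GFP-positive cells. Its signals in the eugenol experiments were 6.83, 7.28, 6.74 and 6.78 in GFP-positive and 8.58, 9.49, 7.87 and 8.36 in GFP-negative cells, without overlap. In the muscone experiments they were 7.10, 5.96, 5.07 and 5.83 against 9.51, 7.68, 6.29 and 7.61, where the ranges overlapped although each experiment had the same sign. The difference was -1.72 (SE 0.18, limma adjusted p 2.90e-08). Olfr704, a MOR283 receptor, gave 8.56, 8.38, 7.78 and 6.95 against 9.39, 10.25, 8.65 and 9.42 in the eugenol experiments and 6.67, 5.98, 6.86 and 7.68 against 8.42, 8.15, 7.35 and 9.11 in the muscone experiments. Its fractions overlapped in the muscone experiments only, and it differed by -1.48 (SE 0.28, limma adjusted p 9.91e-05). The fourth receptor lower in 8 of 8 experiments, Olfr485, differed by -0.82 (SE 0.18, limma adjusted p 3.73e-04), and without the block its adjusted p was 0.169.

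**Figure D2:**
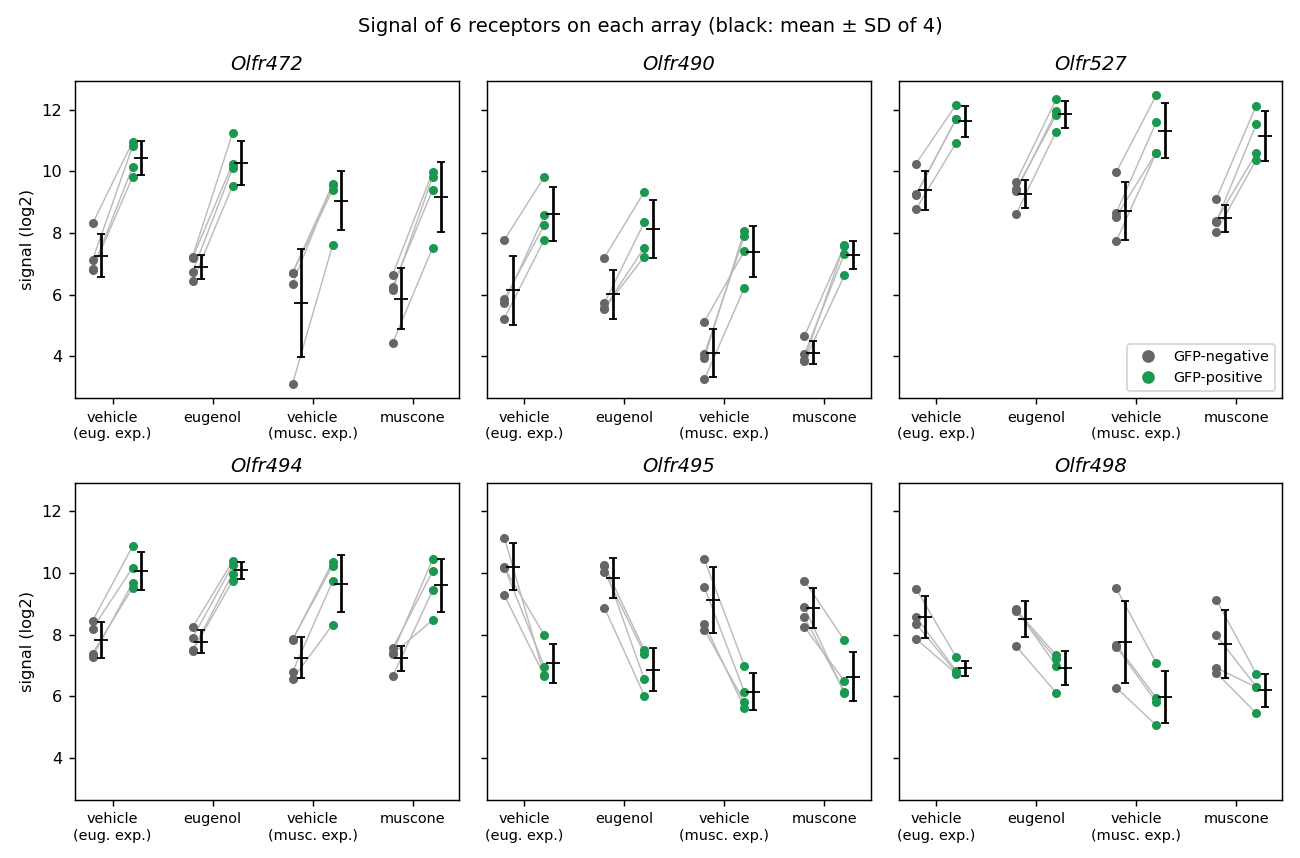
Signal (log2, vertical axis) of 6 receptors on each array, GFP-negative and GFP-positive cells joined by experiment, in the 4 sets of conditions, with the mean ± SD of 4 arrays in black. Olfr472, Olfr490, Olfr527 and Olfr494 rise from GFP-negative to GFP-positive cells in every experiment, and Olfr495 and Olfr498 fall.

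In Olfr484 a single experiment went against the rest. Its vehicle signals were 10.81, 8.43, 7.59 and 7.24 in GFP-positive and 9.73, 10.65, 8.55 and 9.59 in GFP-negative cells of the eugenol experiments, so the first experiment was higher by 1.08 and the others lower. In the muscone experiments they were 7.48, 6.59, 6.10 and 9.30 against 9.61, 8.27, 7.30 and 9.35. The fractions overlapped in both sets, and the difference was -1.19 (SE 0.30, limma adjusted p 0.00157, lower in 7 of 8 experiments). Over experiments its SD was 1.59 in the eugenol and 0.89 in the muscone set, a spread that the fitted SE may understate. Without the block its adjusted p was 0.255. Eugenol experiment 1 also stood apart for the reporter's own gene, since S100a5 lay between 10.62 and 12.16 on its 4 arrays and between 4.63 and 8.08 on the other 28. The part of this in the value of Olfr484 was not tested. The remaining members called lower were Olfr486 at -0.42, Olfr512 at -0.41 and Olfr513 at -0.45, each lower in 7 of 8 experiments. Olfr486 lost its call without muscone experiments 2 and 3 (-0.32, limma adjusted p 0.0565). Without the block Olfr486, Olfr512 and Olfr513 all lost theirs, with a limma adjusted p of 0.715 for Olfr486 and 0.726 for Olfr512. With values raised to 5.68 the size of the difference of Olfr512 was 0.06, so its direction rests on signals in the range of background.

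Neighbouring genes from Olfr693 to Olfr716 differed by about as much as all pairs of that stretch, and those of the other stretches by somewhat less. Neighbours here are the nearest measured genes, and genes without a probe set of their own, such as pseudogenes, can lie between them. From Olfr693 to Olfr716 the gap between the differences of neighbours had a median of 0.77 (log2), and that of all pairs in the stretch 0.75. From Olfr467 to Olfr519 it was 0.89 against 1.13, and from Olfr522 to Olfr541 0.55 against 0.66. Neighbours called in opposite directions were Olfr703 and Olfr704, Olfr704 and Olfr705, Olfr494 and Olfr495, Olfr495 and Olfr497, Olfr497 and Olfr498, Olfr498 and Olfr502, and Olfr510 and Olfr512. The Olfr693 to Olfr716 stretch had 13 members higher and 1 lower of 19 (median 0.68), and the Olfr467 to Olfr519 stretch 25 higher and 7 lower of 38 (median 1.02). The Olfr522 to Olfr541 stretch had 11 higher and none lower of 12 (median 1.10), where Olfr539 at 0.03 was the member that did not pass. Olfr520 and Olfr521 were higher by 1.46 and 1.48. Centred on odorant receptors, the counts of higher and lower became 7 and 8, 20 and 15, and 9 and 1 in these 3 stretches, so the first of them has no direction that holds on every scale. Olfr523 was among those that turned, to -0.018.

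The larger families were divided by the sort. MOR204 held the highest and the lowest member, Olfr472 and Olfr495, with 20 higher, 5 lower and 4 not passed. MOR283 had 7 higher, 1 lower and 3 not passed, and its differences ran from -1.48 to 1.79. In MOR251 all 4 members were higher, between 1.07 and 2.42, and in MOR260 4 of 5. MOR268 had 3 higher, 1 lower and 1 not passed. Centred on odorant receptors, MOR251 kept 4 higher, while MOR204 had 16 higher and 11 lower, MOR283 6 and 5, MOR268 2 and 2, and MOR260 1 and 1. Olfr713 and Olfr714 (P3 and P4), adjacent genes of family MOR263 used in many studies of axon targeting, were higher by 0.33 (SE 0.06) and 0.68 (SE 0.14). Olfr713 turned to -0.32 and -0.34 under centring on odorant receptors and on mature neuron genes, and Olfr714 fell to 0.04 and 0.01 there, so neither has a direction that holds on every scale.

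Receptors alike in sequence could differ widely between fractions. Of the 71 members, 66 were in the RefSeq promoter table and 54 of these began with ATG at the annotated start, which makes their next 50 bases comparable coding sequence. Their 1431 pairs had a median identity of 32%, and 80 pairs among 20 members reached 90%. In those 80 pairs the gap between differences had a median of 1.27 (log2) and ran from 0.01 to 5.36, while in all other pairs the median was 0.96. The 232 pairs of one family with less identity had a median gap of 1.26. Olfr484 and Olfr493, printed above, were identical over the 50 bases and differed by -1.19 and 0.29 between fractions. Olfr493 passed (SE 0.09, limma adjusted p 0.00746) but turned to -0.35 and -0.38 under centring on odorant receptors and on mature neuron genes. Pairs share genes, so these are descriptions with no test.

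**Figure D3:**
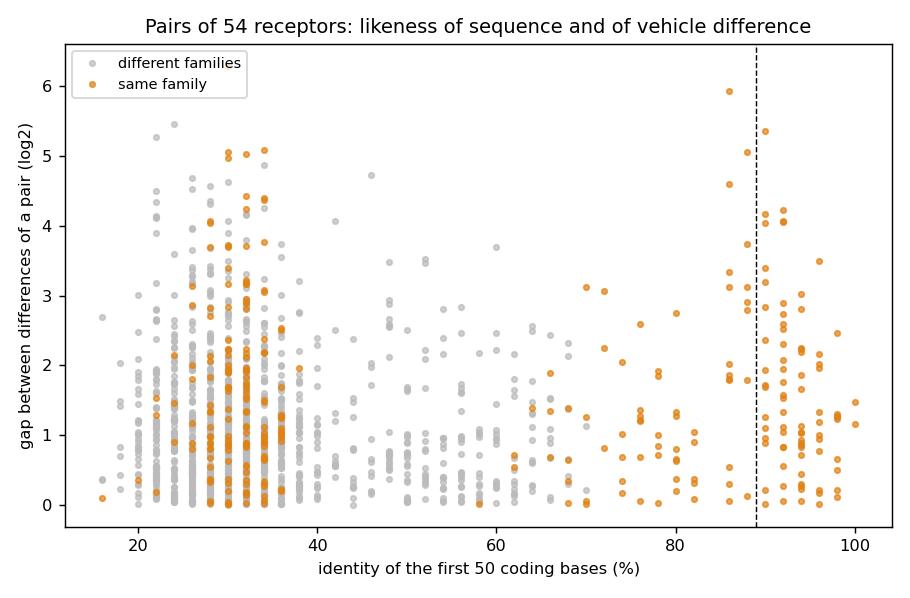
Each point is a pair among 54 receptors, with the identity of their first 50 coding bases (percent, horizontal axis) and the gap between their vehicle differences (log2, vertical axis). Pairs right of the dashed line, at 90% identity and above, are all of the same family and spread from 0.01 to 5.36.

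For the 12 members whose annotated start is not an ATG the table holds bases upstream of a transcript. Homeodomain sites and sites of the Olf/Ebf factors are the elements most often described before odorant receptor genes. The letters TAATNA, searched on both strands of the 250 bases before the start, were found in 9 of these 12 (75%), in 66% of 250 other odorant receptors with such a start and in 24.3% of all 32851 windows of this length. The letters CCCNNGGG, which read alike on both strands, were in 2 of 12 (16.7%), in 6.8% of those other receptors and in 11.8% of all windows. A stretch of 100 bases before the start of 2 members higher in GFP-positive cells shows one match each in capitals, both on the minus strand of GRCm38.p6, for Olfr478 at chr7:108033968-108034067 and for Olfr536 at chr7:140507319-140507418.
Olfr478: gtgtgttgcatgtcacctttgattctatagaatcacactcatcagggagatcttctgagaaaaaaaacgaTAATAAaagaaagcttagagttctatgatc
Olfr536: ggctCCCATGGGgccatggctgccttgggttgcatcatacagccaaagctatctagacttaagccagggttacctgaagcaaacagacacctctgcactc
Olfr478 differed by 1.80 (SE 0.21) and Olfr536 by 1.78 (SE 0.11), each in 8 of 8 experiments. Of the 12, Olfr693 and Olfr711 held neither set of letters in the window, with differences of 1.79 and 0.21. A match is a description of letters and no site.

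The pattern under vehicle recurred in separate experiments. Across the 71 members the mean difference in the 4 eugenol experiments correlated with that in the 4 muscone experiments at r = 0.94, and 66 members had the same sign in both. Between single experiments r ran from 0.67 to 0.90, with a median of 0.83 over 28 pairs. These correlations are across genes that share arrays and probes, and they are descriptions. Neither they nor the count of 66 were computed for other genes, so the recurrence is not shown to be particular to the members. No member passed a test of the difference between the eugenol and muscone sets of vehicle arrays, and 0% of all genes did. At an unadjusted p under 0.05 it was 8 members (11.3%) and 15.6% of all genes. The smallest p belonged to Olfr483, whose difference was -0.66 ± 0.66 (SD, n = 4) in the eugenol and 0.86 ± 0.60 (SD, n = 4) in the muscone experiments (limma adjusted p 0.126). Olfr705 followed with 0.93 ± 0.36 (SD, n = 4) and 2.36 ± 0.97 (SD, n = 4) (limma adjusted p 0.159).

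**Figure D4:**
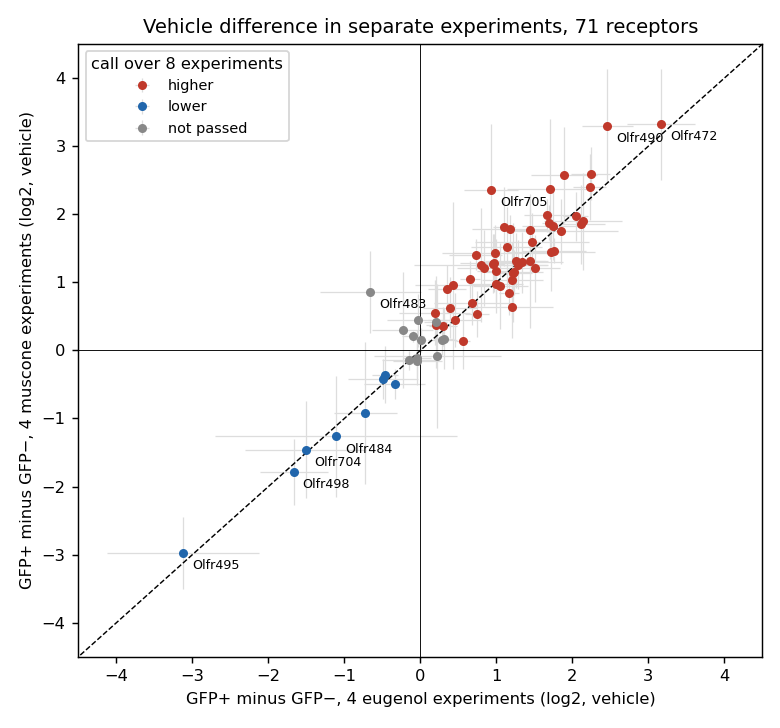
Mean difference between GFP-positive and GFP-negative cells under vehicle (log2) in the 4 eugenol experiments (horizontal) and the 4 muscone experiments (vertical) for 71 receptors, with the SD of 4 experiments as grey lines and equality dashed. Olfr483 at -0.66 and 0.86 and Olfr705 at 0.93 and 2.36 lie farthest above the line.

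Most receptors higher in GFP-positive cells under vehicle were higher there after an odorant too, while most of those lower under vehicle did not pass again. After eugenol 49 members passed as higher in GFP-positive cells and 3 as lower, where 28.3% and 18.3% of all genes did so, and the median was 0.99. After muscone 56 passed as higher and 3 as lower, where 35.1% and 21.5% of all genes did so, and the median was 1.29. Centred on odorant receptors, the counts were 35 and 20 after eugenol and 33 and 20 after muscone. Without the block they were 12 and 2, and 21 and 1. Leaving out eugenol experiment 1 or 2, or muscone experiment 2, raised the members lower after eugenol from 3 to 5. Of the 51 members higher under vehicle 48 were also higher after eugenol (94.1% of the vehicle list and 98% of the eugenol list) and 50 after muscone (98% and 89.3%). This overlap was not computed over all genes or other odorant receptors, so it is not shown to be particular to the members. The 3 members lower after each odorant were Olfr495, Olfr498 and Olfr704, which were also lower under vehicle and make up 37.5% of the 8 members lower there. The call of Olfr704 after muscone (-1.16, limma adjusted p 0.0169) was lost without muscone experiment 1 (-1.15, limma adjusted p 0.0578) or 4 (-0.87, limma adjusted p 0.136). No member was called in opposite directions under any pair of the 3 stimuli. These comparisons use different arrays of the same experiments. The vehicle test averages 8 experiments (median SE of members 0.14) and each odorant test 4 (0.20). A member that did not pass again is therefore not shown to have lost its difference.

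Olfr472 after eugenol gave 10.25, 11.24, 9.53 and 10.10 in GFP-positive and 7.20, 7.24, 6.43 and 6.75 in GFP-negative cells, and after muscone 9.98, 9.41, 7.53 and 9.82 against 6.65, 6.26, 4.43 and 6.15. The fractions again did not overlap, and the differences were 3.37 (SE 0.24) and 3.31 (SE 0.24). Olfr495 gave 7.39, 7.50, 6.03 and 6.55 against 10.04, 10.25, 8.88 and 10.22 after eugenol, and 7.82, 6.50, 6.16 and 6.10 against 9.75, 8.25, 8.56 and 8.89 after muscone. It did not overlap either, with differences of -2.98 (SE 0.27) and -2.22 (SE 0.27). The other 5 members lower under vehicle did not pass after either odorant on the scale as deposited. Centred on odorant receptors, Olfr485 passed after eugenol (-0.89, limma adjusted p 0.00361) and after muscone (-1.40, limma adjusted p 2.46e-05). With that centring Olfr484 passed too, at -1.38 (limma adjusted p 0.00402) and -1.25 (limma adjusted p 0.00613). Uncentred, Olfr484 differed by -0.80 (SE 0.42) after eugenol and by -0.30 (SE 0.42) after muscone. It passed after eugenol without eugenol experiment 1 (-1.20, limma adjusted p 0.00966) and with array weights (-0.91, limma adjusted p 0.0221). After eugenol and after muscone Olfr485 was at -0.31 and -0.45, Olfr486 at -0.39 and 0.02, Olfr512 at -0.28 and -0.07, and Olfr513 at -0.59 and 0.16.

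Neither odorant changed a member past the threshold when odorant was compared with vehicle in the same fraction. With limma, 0 of 71 members passed for eugenol in GFP-positive cells (0% of all genes), eugenol in GFP-negative cells (0%), muscone in GFP-positive cells (0.00502%, which is 1 gene) and muscone in GFP-negative cells (0%). At an unadjusted p under 0.05 the counts of members were 2, 2, 1 and 19, or 2.82%, 2.82%, 1.41% and 26.8%, beside 4.63%, 2.34%, 3.74% and 8.55% of all genes. The shares of the other odorant receptors were 5.03%, 5.03%, 5.86% and 19.1%. Member differences ran from -0.74 to 0.32 for eugenol in GFP-positive cells, from -0.44 to 0.21 for eugenol in GFP-negative cells and from -0.50 to 0.50 for muscone in GFP-positive cells. The median SE was 0.20. The 95% interval lay within 1 (log2) of no change for 67, 68, 66 and 60 of the 71 members in these 4 comparisons, so changes of that size were outside the interval for most members and smaller ones were not resolved.

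In GFP-negative cells after muscone the members lay low together without any passing. Their median was -0.26 and 62 of 71 were below 0, while the other odorant receptors had a median of -0.25 with 835 of 955 below 0, and all genes 0.01. Olfr693 had the smallest p, at -0.76 (SE 0.20, lower in 4 of 4 experiments, limma adjusted p 0.296), followed by Olfr525 at -0.65 and Olfr521 at -0.74. When arrays were centred on their odorant receptors, 3 members passed as higher and 1, Olfr693 at -0.48 (limma adjusted p 0.0216), as lower, and the median of all genes moved to 0.29. The mature neuron markers had a median of -0.14 in the same comparison, and their part in the receptors' values was not tested.

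The change of the difference between fractions with odorant passed for 0 members with either odorant, where 0% (eugenol) and 0.00502% (muscone) of all genes passed. At an unadjusted p under 0.05 the counts were 0 and 3 members, where 1.19% and 4.45% of all genes lay. The muscone comparison shares its arrays with those just given, and its median was 0.26 over members and 0.23 over other odorant receptors. Olfr510 at 0.85 (SE 0.34), Olfr701 at 0.72 (SE 0.29) and Olfr486 at 0.52 (SE 0.23) had the smallest p with muscone, all with a limma adjusted p of 0.985. For eugenol these were Olfr504 at 0.29 (SE 0.16), Olfr477 at 0.50 (SE 0.28) and Olfr516 at 0.61 (SE 0.41). For Olfr472, odorant against vehicle in GFP-positive cells was -0.15 with eugenol (95% interval -0.65 to 0.34) and 0.14 with muscone (-0.36 to 0.63). For Olfr490 it was -0.49 (-1.03 to 0.04) and -0.11 (-0.65 to 0.42).

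**Figure D5:**
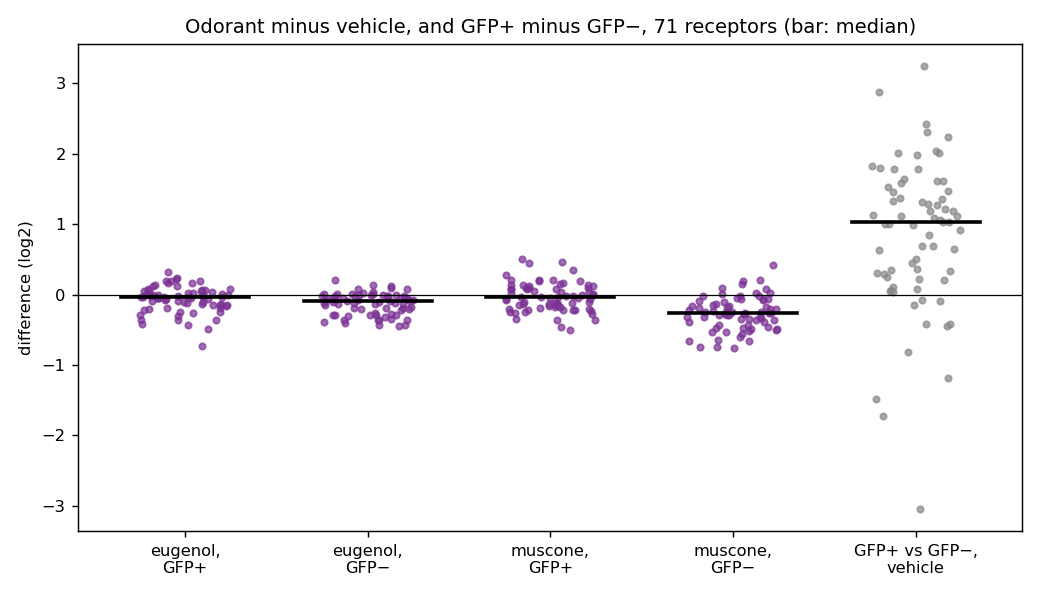
Odorant minus vehicle (log2, vertical axis) for 71 receptors in each fraction, beside the difference between GFP-positive and GFP-negative cells under vehicle, 1 point per receptor and a bar at the median. Odorant differences stay between -0.76 and 0.50, and those between fractions run from -3.05 to 3.24.

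Counts for genes that work with odorant receptors are read against the 45.1% of all genes higher and the 21.9% lower under vehicle. Of 19 genes of receptor transduction and trafficking, 12 of which are also among the mature neuron markers, 17 passed as higher in GFP-positive cells under vehicle and 2 as lower, with a median of 0.57, but centred on odorant receptors it was 2 higher and 8 lower (median -0.08). Slc8a1, a sodium-calcium exchanger, was higher by 1.10 (SE 0.10) and Reep1, a helper of receptor trafficking to the membrane, by 0.77 (SE 0.08), which fell to 0.13 (limma adjusted p 0.0806) centred on odorant receptors and to 0.10 (limma adjusted p 0.231) centred on mature neuron genes. Of 18 regulators of receptor gene choice, 4 were higher and 6 lower (median -0.04), and 18 lower when centred on odorant receptors. Lbr, a nuclear envelope protein whose loss from the neuron's nucleus accompanies clustering of receptor genes, was lower by 1.04 (SE 0.10) and the demethylase gene Kdm1a by 0.32 (SE 0.06). Of 15 activity-dependent genes, 7 were higher and 6 lower, or 3 and 9 with that centring. S100a5 itself was higher by 0.43 (SE 0.15, limma adjusted p 0.0171), a call lost without eugenol experiment 1 (0.34, limma adjusted p 0.063) or muscone experiment 4 (0.38, limma adjusted p 0.0579). Omp, the marker of mature olfactory neurons, was higher by 0.27 (SE 0.07). Without the block Omp and S100a5 lost their calls (limma adjusted p 0.916 for each). Slc8a1, Reep1 and Kdm1a lost theirs too (limma adjusted p 0.244, 0.471 and 0.832), while Lbr passed in every setting. Under centring on odorant receptors S100a5 and Omp turned to -0.22 and -0.37 and on mature neuron genes to -0.24 and -0.40.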

How the data were processed

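The deposited table holds log2 signals of 35556 probe sets on 32 arrays, made in Affymetrix Expression Console per the submitters' processing notes. Its version, and how it corrected background, normalized and summarised, were not given in the sources used here. Platform annotation gave 1 symbol for 21789 probe sets, several for 1621 and none for 12146. The probe set with the highest mean stood for a gene, which left 19938 genes. All 71 members matched the RefSeq gene table (GRCm38.p6) by gene ID and symbol.

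All 32 arrays entered 1 limma fit (limma 3.58.1, R 4.3.3) with 8 groups and the experiment as a block (14 coefficients, 18 residual degrees of freedom, 21.7 with the prior). The pairing comes from the number that the labels give each experiment. Deviations of same-numbered arrays correlated at 0.20 to 0.91 (median 0.66) in 48 of 48 pairs, all above 0.1. Two-sided p-values were adjusted over all genes by the Benjamini-Hochberg method, with a threshold of 0.05. Lower bounds were computed after seeing the data, with signals under the 90th percentile of the vomeronasal receptors (5.68) raised to it. The fit was tested on simulated data. The number of arrays limits the precision.

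Named members were the 10 largest differences per direction under vehicle with 1 sign in 8 of 8 experiments, up to 5 per direction elsewhere or else the 3 smallest p, the 5 highest and 3 lowest mean signals, and Olfr472 and Olfr490. Of other genes, Omp and S100a5 were named by the rule, which also allowed up to 4 genes with the smallest p of each list. From those, Slc8a1, Reep1, Lbr and Kdm1a were picked by hand, so they do not stand for their lists. The parts of the rule on protein identity and on likeness between members were not used here. Olfr484, Olfr492, Olfr493, Olfr497, Olfr713, Olfr714 and Olfr702, and Olfr478 for its sequence, were chosen after their values were seen. The members and gene lists were chosen with earlier results of these data known. Alternatives were no block, quantile normalization, 3 centrings, a filter on dim genes, array weights, and leaving out each experiment; leaving out muscone experiments 2 and 3 together was added after seeing the data.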

Additional observations from a re-analysis of the deposited data

Results flagged for a closer look

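Among 168 sets of 4 experiments examined for named members, 7 held an experiment far from the other 3, and chance flags about 1 in 20 such sets. Under vehicle, the difference between fractions in eugenol experiment 4 was 2.29 for Olfr473 (others 1.95 to 1.97) and 2.15 for Olfr701 (others 0.99 to 1.14), and in eugenol experiment 2 it was 1.31 for Olfr520 (others 1.01 to 1.05). After eugenol, experiment 2 gave 1.95 for Olfr509 (others 1.53 to 1.60) and 0.39 for Olfr492 (others -0.58 to -0.49), and experiment 4 gave 0.01 for Olfr493 (others 0.40 to 0.45). After muscone, experiment 3, which had the lowest signals of all, gave 1.10 for Olfr502 (others 2.59 to 2.74). All are log2 differences between GFP-positive and GFP-negative cells. Of these, Olfr492 alone changed sign in the experiment that stood apart.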

How the results depend on the processing

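Without the replicate block, members higher and lower numbered 25 and 3 under vehicle, 12 higher after eugenol, and 21 and 1 after muscone. Centred on odorant receptors, 24 were lower under vehicle, 20 after eugenol and 20 after muscone, with 33 higher after muscone, and muscone in GFP-negative cells gave 3 higher and 1 lower. Centred on mature neuron genes, 24, 18 and 19 were lower, and 32 and 33 were higher after eugenol and muscone. Members lower after eugenol numbered 6 under quantile normalization, 8 with array weights and 5 without muscone experiments 2 and 3. Leaving out 1 experiment at a time gave 51 to 53 higher and 7 to 8 lower under vehicle, 45 to 50 and 3 to 5 after eugenol, and 54 to 58 and 2 to 3 after muscone. Odorant comparisons gave 0 members in every setting other than the centring named.

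Under vehicle 9 of the differences followed through every setting, called ones of up to 0.64 among them, changed sign with the centring. Members not followed this way, among them Olfr702, Olfr711 and Olfr539, are not covered, so the list is not complete. Values for the 9 are given for centring on odorant receptors and then on mature neuron genes. They were -0.59 and -0.61 for Olfr504, -0.54 and -0.57 for Olfr483, -0.57 and -0.60 for Olfr488, -0.35 and -0.38 for Olfr493, -0.32 and -0.34 for Olfr713, -0.018 and -0.044 for Olfr523, -0.002 and -0.028 for Olfr474, -0.37 and -0.40 for Omp, and -0.22 and -0.24 for S100a5. Olfr697 turned to 0.001 when centred on all probe sets and ran from -0.144 to 0.004 with 1 experiment left out, and Olfr504 to -0.06 under quantile normalization. Olfr483 was -0.13 without muscone experiments 2 and 3 and ran from -0.034 to 0.209 with 1 experiment left out, turning without eugenol experiment 4 or muscone experiment 2. Olfr488 ran from -0.175 to 0.243, turning without eugenol experiment 1 or 2 or muscone experiment 4. Causes were not tested. Signal near background limits Olfr474, Olfr482, Olfr504 and Olfr512, and in its lower fraction also Olfr490. Olfr702 lay under 5.68 in 6 of 8 vehicle arrays of its lower fraction and in 3 of 8 of its higher one. With values raised to 5.68 the differences became 0.11 for Olfr474, 0.21 for Olfr482, 0.40 for Olfr702 and 2.03 for Olfr490.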
